A study of Homo sapiens with 22 samples.

Results

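HOXA9, HOXA10, HOXA11 and HOXA13, the posterior genes of the HOXA cluster, and EVX1, the homeobox gene beyond the posterior end of that cluster, lie on human chromosome 7. These 5 genes, of 19974 protein-coding genes in the RefSeq annotation (build GRCh38), were listed by name and selected on earlier results for their histone mark and HOXD13 peaks in these same lists. All of these peaks are therefore given as a description and support nothing further. For each gene, peaks over the gene or within 1 kb of it were read from 18 deposited peak lists. The lists come from CUT&RUN, in which an antibody directs micrococcal nuclease to chromatin and the released fragments are sequenced, in A673 and CHLA10, established cell lines of Ewing sarcoma. Each of the histone marks H3K4me3, H3K27ac, H3K4me1 and H3K27me3 has 2 libraries in A673 cells labelled shNS and 2 in CHLA10 cells labelled shNS. Beside them are 1 HOXD13 library per line without that label and 4 IgG libraries, which were not compared as groups. By the peak names, narrow peaks were called against IgG and H3K27me3 peaks without a control. No treatment is given beyond the shNS label, each group is a single cell line, and nothing says that replicates came from separate cultures. The lists hold called peaks without reads, which leaves sequencing depth unknown, and no RNA was measured.

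HOX genes encode homeodomain transcription factors that set position along the body axis and the limb, and within a cluster they lie in the order in which they act. The posterior HOXA genes pattern the distal limb, the urogenital tract and, for HOXA9 and HOXA10, blood progenitors. Polycomb complexes lay down H3K27me3 over HOX genes that are held silent, trithorax complexes lay down H3K4me3 at active or poised promoters, and a promoter with both marks is called bivalent. H3K27ac marks active promoters and enhancers, and H3K4me1 marks enhancers.

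H3K27me3 separated the lines at 3 of the 5 genes. In A673, peaks of H3K27me3 covered all 5 genes. In CHLA10 they covered HOXA9 and EVX1, and HOXA10, HOXA11 and HOXA13 had none. H3K4me3 lay at HOXA11, HOXA13 and EVX1 in every library of both lines. H3K27ac was not called at any member in CHLA10. Of all genes, 25.2% had none in any of the 4 libraries, and a further 8.66% had it in both A673 libraries and neither CHLA10 library. Genes with a peak in 1 A673 library alone, as at HOXA11 and HOXA13, add to these, and their share was not computed. With 2 libraries against 2, the smallest p that exact permutation allows is 0.33, and the members were chosen with these peaks known, so the values are a description without a test.

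**Figure D1:**
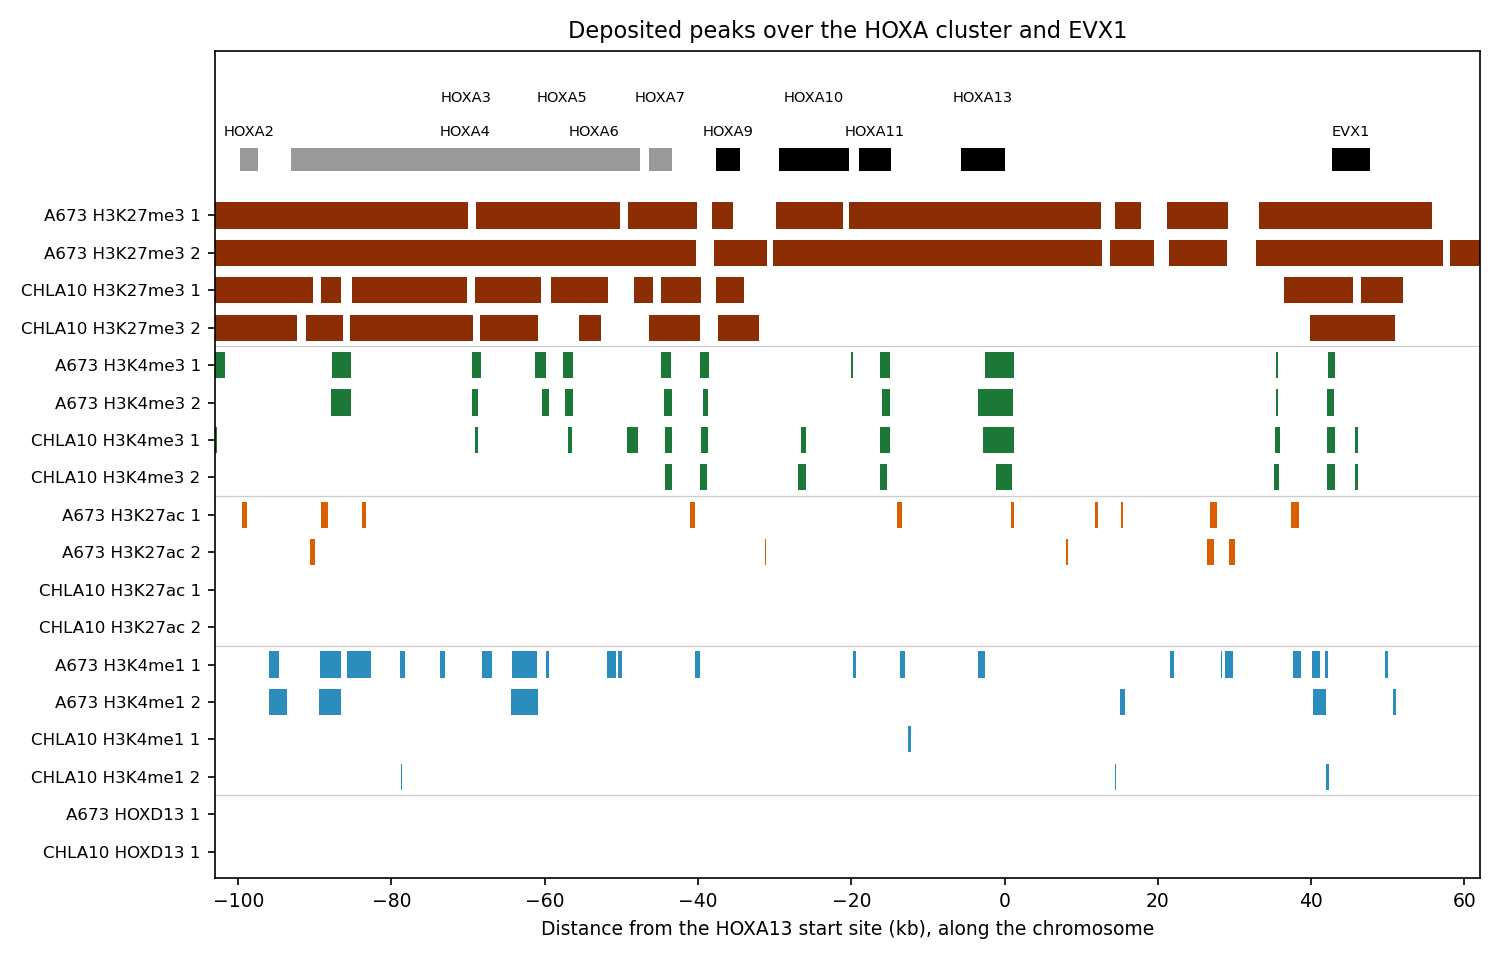
Deposited peaks of the 18 lists (rows, A673 above CHLA10 for each mark) over the HOXA cluster and EVX1, plotted by distance in kb from the HOXA13 start site. Black boxes are the 5 members and grey boxes are HOXA2 to HOXA7. The empty stretch in both CHLA10 H3K27me3 rows spans HOXA10, HOXA11 and HOXA13, where the A673 rows are filled.

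Of the start regions of 4 transcripts printed here, those of HOXA13 and EVX1 lay wholly inside H3K4me3 peaks in all 4 libraries, and those of HOXA11 and the internal start of HOXA10 held 0 bp of the mark in each. They were chosen because HOXA13 and HOXA11 carried H3K4me3 with H3K27me3 in A673 and without it in CHLA10, EVX1 carried both marks in both lines, and the internal start of HOXA10 lies beside an H3K4me3 peak called in CHLA10 alone. Each sequence runs from 250 bases before to 50 bases after the start (RefSeq, build GRCh38.p14), 5′ to 3′ on the gene's own strand. Capitals mark CG dinucleotides, the letters on which CpG islands are defined. HOXA13 is at chr7:27200042-27200341, HOXA11 at chr7:27185183-27185482 and the internal start of HOXA10 at chr7:27174271-27174570, all on the minus strand, and EVX1 is at chr7:27242552-27242851 on the plus strand.
HOXA13: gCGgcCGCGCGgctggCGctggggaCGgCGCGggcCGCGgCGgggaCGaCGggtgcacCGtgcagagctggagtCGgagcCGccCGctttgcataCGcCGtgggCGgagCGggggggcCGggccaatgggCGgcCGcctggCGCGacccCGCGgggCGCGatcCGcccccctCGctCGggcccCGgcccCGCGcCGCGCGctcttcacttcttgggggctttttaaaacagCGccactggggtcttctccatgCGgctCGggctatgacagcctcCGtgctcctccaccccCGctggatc
HOXA11: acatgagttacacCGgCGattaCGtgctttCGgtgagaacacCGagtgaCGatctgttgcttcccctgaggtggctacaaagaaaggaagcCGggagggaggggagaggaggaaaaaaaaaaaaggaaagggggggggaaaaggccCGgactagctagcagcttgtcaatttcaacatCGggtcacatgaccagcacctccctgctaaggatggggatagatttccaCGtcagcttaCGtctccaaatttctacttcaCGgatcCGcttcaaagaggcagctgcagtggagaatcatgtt
HOXA10 (internal start): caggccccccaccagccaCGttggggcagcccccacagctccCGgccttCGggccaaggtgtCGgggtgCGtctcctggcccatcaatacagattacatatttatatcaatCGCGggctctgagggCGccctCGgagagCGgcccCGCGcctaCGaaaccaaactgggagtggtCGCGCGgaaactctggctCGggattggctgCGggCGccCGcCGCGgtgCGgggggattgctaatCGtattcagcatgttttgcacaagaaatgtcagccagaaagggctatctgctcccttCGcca
EVX1: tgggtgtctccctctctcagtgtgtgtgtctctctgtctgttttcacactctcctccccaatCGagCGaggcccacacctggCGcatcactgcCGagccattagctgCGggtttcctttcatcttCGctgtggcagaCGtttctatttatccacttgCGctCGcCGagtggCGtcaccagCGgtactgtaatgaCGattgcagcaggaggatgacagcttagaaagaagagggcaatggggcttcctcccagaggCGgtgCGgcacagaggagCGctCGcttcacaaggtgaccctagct

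The windows differed in CG content. HOXA13 held 44 CG dinucleotides, more than 95.8% of the 34961 RefSeq start windows, whose median was 14, and its GC content was 76.3%. The internal HOXA10 window held 25, EVX1 17 and HOXA11 13. HOXA9 held 22, and the upstream HOXA10 window held 21. None of the 6 member windows, that is 1 each for HOXA9, HOXA11, HOXA13 and EVX1 and a pair for HOXA10, held CAATAAA or TCGTAAA, letters bound by posterior HOX proteins, or the ETS repeat GGAAGGAA, on either strand. Of all start windows, 4.00%, 0.541% and 3.67% hold these motifs. The absence says only that these letters are not in these windows.

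HOXA10 (chromosome 7, 27170605 to 27179861) encodes a factor of uterine and limb patterning. Its length lay inside H3K27me3 peaks for 90.5% and 100% in the A673 libraries, against 0% and 0% in the CHLA10 libraries. HOXA11 (27181157 to 27185232), which patterns the forearm and the uterus, was at 100% and 100% in A673 and at 0% and 0% in CHLA10. HOXA13 (27194364 to 27200091), the gene of the hand, foot and genital bud, had the same values, 100% and 100% in A673 and 0% and 0% in CHLA10. Both A673 libraries and neither CHLA10 library had a peak over these 3 genes or within 1 kb, as at 5.1% of all protein-coding genes.

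HOXA9 (27162438 to 27165537), a factor of blood progenitors, was covered in both lines. H3K27me3 lay over 73.6% and 100% of it in A673 and 100% and 90.9% in CHLA10. The means were 86.8% ± 18.6 in A673 and 95.5% ± 6.43 in CHLA10 (SD, n = 2 each), so the difference of -8.63 percentage points, A673 minus CHLA10, was smaller than the spread between A673 replicates. EVX1 (27242802 to 27247830), a homolog of the Drosophila pair-rule gene even-skipped, had 100% and 100% in A673 and 81.0% and 100% in CHLA10. Its CHLA10 mean was 90.5% ± 13.4 (SD, n = 2), and the lines overlapped.

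Counted by presence of a peak over the gene or within 1 kb, 3 of 5 members had H3K27me3 in both A673 libraries and neither CHLA10 library. The same call was made for 5.1% of all protein-coding genes. No member had it in CHLA10 only, against 3.61% of all genes, and 2 of 5, HOXA9 and EVX1, had it in all 4 libraries, against 10.3%. None lacked it in all 4, against 72.2%. By length, at least 50% was covered in A673 at 5 of 5 members, against 4.1% of all genes, and in CHLA10 at 2 of 5, against 5.26%. At 3 members that level was reached in A673 and not in CHLA10, against 1.94% of genes, and at 0 members the other way round, against 3.1%. These shares describe a pattern on which the genes were picked. HOXA10, HOXA11 and HOXA13 are neighbours under the same A673 peak in replicate 2 and in the same CHLA10 gap, so they are not separate observations. Over all protein-coding genes the median covered share was 0% in both lines, with means of 5.73% in A673 and 6.41% in CHLA10.

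**Figure D2:**
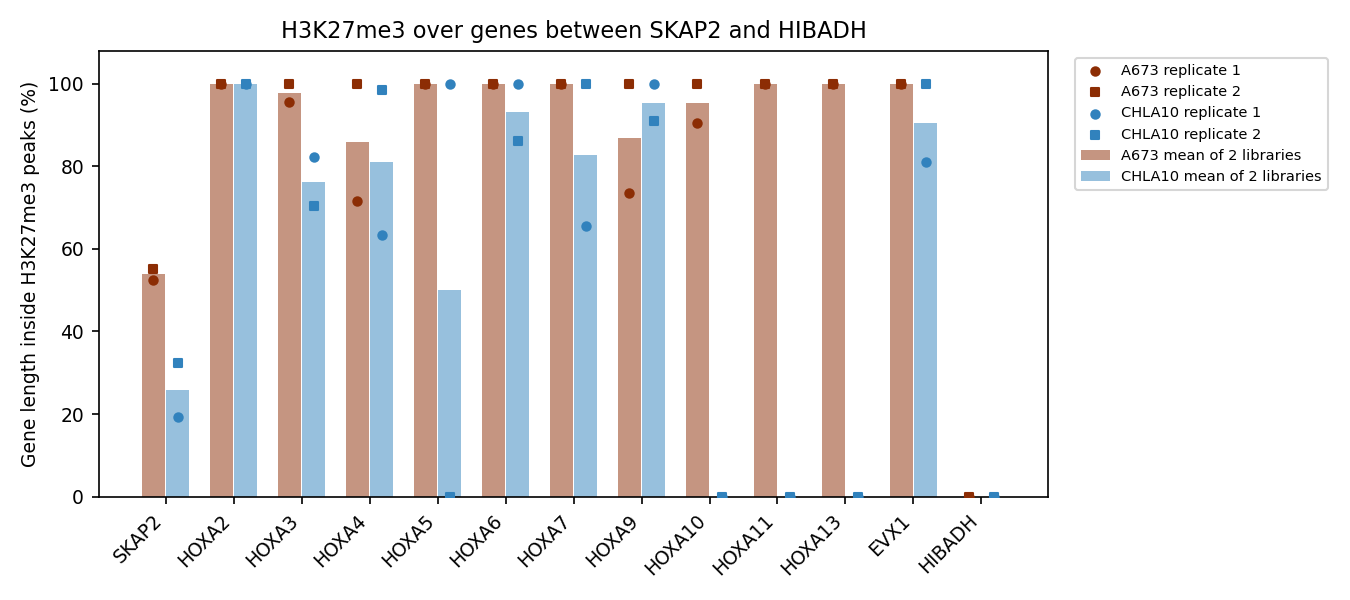
Share of each gene's length inside H3K27me3 peaks for protein-coding genes in order between SKAP2 and HIBADH (bars: mean of 2 libraries, A673 left of CHLA10; points: replicates 1 and 2). HOXA10, HOXA11 and HOXA13 stand at 90.5% to 100% in A673 and at 0% in CHLA10, between genes covered in both lines.

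The borders of H3K27me3 followed from these values. A border was placed between neighbouring genes of which one had at least 50% of its length inside peaks, as the mean of a line's libraries, and the other less. In A673 no border fell between members, and the next one after EVX1 lay before HIBADH, a metabolic enzyme gene with 0% in both lines. CHLA10 had a border between HOXA9 and HOXA10 and another between HOXA13 and EVX1, and shared the one after EVX1. The border between HOXA9 and HOXA10 rests on a modest domain, and the HOXA9 peaks were modest in both lines. In A673 they ranked among the upper 44.1% and 46.0% of their lists by −log10 q (3.02 and 2.72). The A673 peaks over HOXA9 also had breaks in H3K27me3 on both sides. In CHLA10 the HOXA9 peaks ranked among the upper 54.4% and 19.3% of their lists by −log10 q (2.88 and 3.97), and with only the upper 50% of each list kept, the mean HOXA9 cover was 45.5% and the border moved to between HOXA7 and HOXA9.

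At base level, the last CHLA10 peak before the gap ended at 27166111 in replicate 1 and 27168021 in replicate 2, both between HOXA9 and HOXA10. The next began at 27236502 and 27240009, both before EVX1. The gaps were 70.4 and 72.0 kb long. They share 68.5 kb, from 27168022 to 27236501, of which A673 peaks covered 82.1% and 88.9%. Each A673 library had 5 peaks there, and they varied in strength. The peak over HOXA11 and HOXA13 was among the strongest of its list in both. A peak from 27179862 to 27212710 in replicate 1 (fold enrichment 8.18, −log10 q 10.8) stood 64th of 28060 by −log10 q, and one from 27169825 to 27212749 in replicate 2 (8.32, 11.5) stood 63rd of 31993. The 2 A673 peaks lying wholly between HOTTIP and EVX1 stood lower, in the upper 16.6% and 14.2% of the list in replicate 1 and the upper 45.1% and 3.23% in replicate 2. The fold enrichment and −log10 q are the authors' own values for each peak.

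Genome-wide, bases covered in both A673 libraries and in neither CHLA10 library were joined over gaps of up to 5 kb. The stretch at HOXA10 to EVX1, from 27170215 to 27236501, held 55683 such bases and was 14th of 15133. The median stretch held 2275. This ranks the same contrast that picked the genes.

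The gap in CHLA10 is a gap in the deposited lists, and some peaks were called within it. Peak names carry a running number that rose along chromosome 7 in all 4 H3K27me3 lists, and in the gap 12 numbers in replicate 1 and 11 in replicate 2 were missing. That is 17.0 and 15.3 missing numbers per 100 kb, against 6.32 and 6.22 per 100 kb outside kept peaks on the whole chromosome. The shortest deposited H3K27me3 peak of any list was 2000 bp long. If all missing peaks were shorter than that, they covered at most 24 of 70.4 kb and 22 of 72.0 kb. The criterion for leaving out peaks is not given, and no deposited peak has a −log10 q under 2. Longer but weaker peaks may therefore be among the missing ones, and the limits of 24 and 22 kb need not hold. Neither short stretches nor longer, weaker ones of H3K27me3 in the CHLA10 gap were detectable from these lists. The part of this selection in the difference between lines was not tested.

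H3K4me3 was called at HOXA11, HOXA13 and EVX1 in both lines, in different widths. Among the members HOXA13 had the longest peaks, which ran over its start and that of HOTTIP, a long non-coding RNA gene read in the opposite direction. They were 3761 and 4633 bp long in A673 and 3936 and 2112 bp in CHLA10. By length they were in the upper 10.9% and 4.24% of the A673 lists and in the upper 6.65% and 34.8% of the CHLA10 lists. By −log10 q (20.9 and 72.9 in A673, 39.5 and 40.4 in CHLA10) they were in the upper 75.8% and 47.0% in A673 and the upper 44.2% and 40.6% in CHLA10. Within their lists these peaks stood higher by length than by strength in each library.

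At HOXA11 the H3K4me3 peak had a −log10 q of 33.7 and 30.5 in A673 and 46.0 and 23.9 in CHLA10. Within their lists these peaks were in the upper 68.9% and 64.9% in A673 and in the upper 39.7% and 53.3% in CHLA10. In every library the peak began inside the gene, 102 and 63 bp after the start site in A673 and 149 and 486 bp after it in CHLA10. It therefore did not touch the start window printed above, and it lay 239 to 662 bp before the start of the antisense gene HOXA11-AS.

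EVX1 had an H3K4me3 peak across its start in all 4 libraries. Its −log10 q was 17.9 and 32.2 in A673 and 16.6 and 16.3 in CHLA10, in the upper 77.8% and 64.1% of the A673 lists and the upper 60.9% and 60.2% of the CHLA10 lists. A further peak inside EVX1 was called in CHLA10 alone, 377 and 465 bp long (−log10 q 5.74 and 8.57). Farther out, between HOTTIP and EVX1, a short peak was called in all 4 libraries, 255 and 202 bp long in A673 and 712 and 643 bp in CHLA10. In CHLA10 it lay outside the H3K27me3 peaks of both libraries, and in A673 it lay wholly inside them.

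HOXA10 was the member whose H3K4me3 differed most clearly in place. CHLA10 had a peak inside the gene in both libraries, 681 and 927 bp long (−log10 q 12.6 and 6.12), and its edge lay 128 and 186 bp after the internal start site. The A673 libraries had no peak there. A673 replicate 1 had a 178-bp peak (−log10 q 3.96) 239 bp before the upstream start, across the start of the read-through transcript HOXA10-HOXA9, and A673 replicate 2 had none. Because the first of these fell within 1 kb, HOXA10 was not counted as marked in CHLA10 only. Within the gene body alone, or with an overlap of at least 500 bp, it was.

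No H3K4me3 peak lay inside HOXA9 in any library. A peak between HOXA7 and HOXA9 came close in all 4, at 892 and 1030 bp from HOXA9 in A673 and 1064 and 1187 bp in CHLA10. With a limit of 1 kb, A673 replicate 1 alone was inside it and A673 replicate 2 just outside. This peak sat in a break of the H3K27me3 domain. It shared no base with H3K27me3 peaks of the same line, except that part of the CHLA10 replicate 2 peak lay in H3K27me3 replicate 1.

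**Figure D3:**
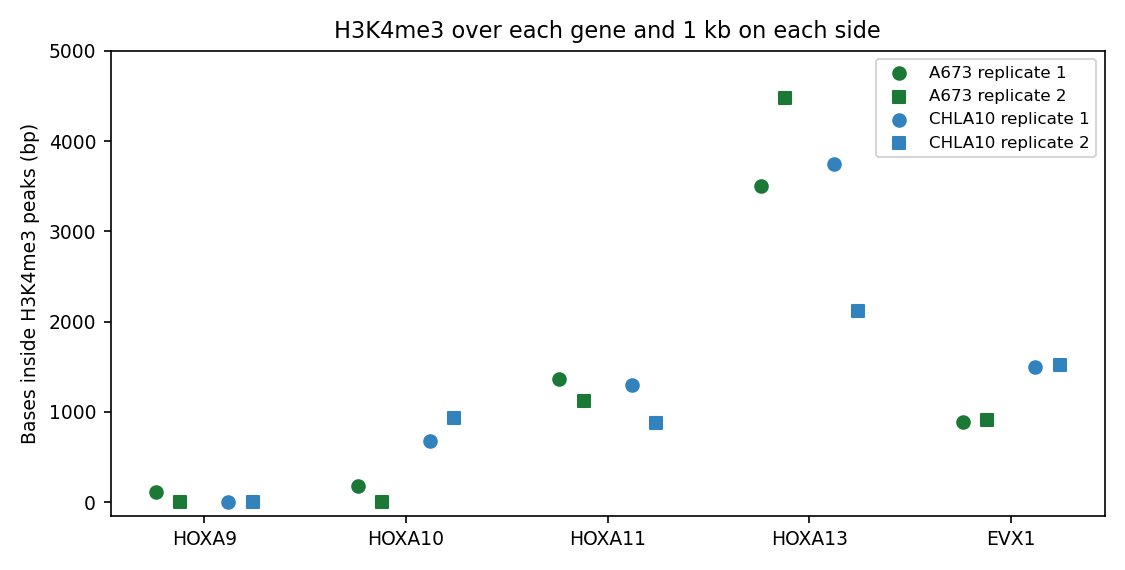
Bases inside H3K4me3 peaks over each gene and 1 kb on each side, for replicates 1 and 2 of A673 (left of each pair) and CHLA10 (right). HOXA13 holds 3504 and 4475 bp in A673 and 3747 and 2112 bp in CHLA10, and HOXA10 holds 178 and 0 bp in A673 and 681 and 927 bp in CHLA10.

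With the marks set together, HOXA11 and HOXA13 had H3K4me3 in all 4 libraries and H3K27me3 in A673 only, a pattern of 2.94% of protein-coding genes. No member had H3K4me3 in all 4 and H3K27me3 in CHLA10 only, against 1.01%. EVX1 had both marks in all 4 libraries, as did 4.26% of genes. H3K4me3 alone was in all 4 libraries at 3 of 5 members, against 66.7% of all genes, which is close to the share among genes at large, and 0 members lacked it in all 4, against 24.3%. Marked with H3K4me3 in A673 only or in CHLA10 only were 0 members each, against 1.68% and 2.4%. Base by base, 5 of 6 and 4 of 5 H3K4me3 peaks between HOXA7 and the far end of EVX1 lay wholly inside the H3K27me3 peaks of both A673 libraries. In CHLA10, 1 of 7 and 1 of 7 did, the peak at the EVX1 start in each case. In each CHLA10 library 4 of these peaks lay in the H3K27me3 gap and could not be inside that mark. The contrast between lines therefore restates the gap, and the share over all H3K4me3 peaks was not computed. Peaks from separate cells can overlap in such lists, so the overlap does not show both marks on the same nucleosome.

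H3K27ac and H3K4me1 were sparse over the members. HOXA9, HOXA10 and EVX1 had no H3K27ac peak within 1 kb in any library. A673 replicate 1 had a peak 817 bp from HOXA11 (−log10 q 7.93) and another 839 bp from HOXA13 (4.08), A673 replicate 2 had neither, and CHLA10 had none. Hence 0 members were marked in A673 only, against 8.66% of all genes, and 0 in CHLA10 only, against 4.81%. In all 4 libraries it was called at 0 members, against 22.6%, and in none at 3 of 5, against 25.2%. Without A673 replicate 2, HOXA11 and HOXA13 would count as marked in A673 only. The nearest peak outside the 1-kb limit lay 1584 bp from HOXA10, in A673 replicate 2. From HOXA9 to EVX1, 6 H3K27ac peaks of A673 replicate 1 and 4 of replicate 2 shared 1 place, from 27226941 to 27227382 between HOTTIP and EVX1. Their median fold enrichment was 6.61 and 5.18, beside 5.29 and 5.18 over the whole lists.

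In CHLA10 the stretch without any deposited H3K27ac peak ran far beyond the genes, for 1.40 Mb in replicate 1 and 1.46 Mb in replicate 2. Within those stretches 3 and 6 peak numbers were missing. The CHLA10 H3K4me3 peaks at HOXA10, HOXA11, HOXA13 and EVX1 lie within these stretches.

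For H3K4me1, A673 replicate 1 had peaks at 4 members: 1 peak lay between HOXA10 and HOXA11 and counted for both, 1 lay inside HOXA13, and 1 lay 464 bp before EVX1. In A673 replicate 2 only EVX1 had one, 807 bp away. CHLA10 replicate 2 had a peak 432 bp from EVX1 (−log10 q 3.26), and CHLA10 replicate 1 had none at any member. By the rule on both libraries, 0 members were marked in A673 only, against 16.3% of genes, and 0 in CHLA10 only, against 0.411%. In all 4 libraries it was at 0 members, against 15.3%, and in none at 1 of 5, HOXA9, against 28.7%. Without A673 replicate 2, HOXA10, HOXA11 and HOXA13 would count as marked in A673 only. The A673 lists covered 74.5 and 51.6 Mb of the genome with H3K4me1 and the CHLA10 lists 9.63 and 11.3 Mb, so H3K4me1 covered less in CHLA10 over the genome as a whole.

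HOXD13, a posterior HOX factor from the HOXD cluster, had no peak near the members. Within 100 kb there were 0 peaks in A673 and 0 in CHLA10, and none within 500 kb. Of all genes, 38.8% had a HOXD13 peak within 100 kb in A673 and 11.6% in CHLA10. The members are neighbours whose 100-kb surroundings overlap, so they are not separate observations. Over the gene or within 1 kb, 0 members had one, beside 12.2% of all genes in A673 and 3.8% in CHLA10. The nearest A673 peak lay inside JAZF1, a zinc finger gene, at 27933390 to 27933634, 686 kb from EVX1 (−log10 q 5.86). The nearest CHLA10 peak also lay inside JAZF1, at 28037231 to 28037538, 789 kb from EVX1 (−log10 q 9.24). Between the peaks that flank the members, 1.73 Mb apart in A673 and 2.74 Mb in CHLA10, 37 and 220 peak numbers were missing. Over the whole lists only 9.93% of A673 and 1.00% of CHLA10 peak numbers were kept, so missing numbers are common throughout. Each line has 1 HOXD13 library, and weaker binding was not detectable from these lists.

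Among the non-coding genes between the members, HOTTIP, which in human cells recruits trithorax proteins to the posterior HOXA genes, and HOXA11-AS were covered by H3K27me3 at 100% and 100% in A673 and 0% and 0% in CHLA10. HOXA10-AS had 56.4% and 76.2% in A673 and 0% and 0% in CHLA10. EVX1-AS had 100% and 100% in A673 and 83.5% and 100% in CHLA10. MIR196B, the microRNA gene between HOXA9 and HOXA10 (27169480 to 27169563), was outside H3K27me3 peaks in all 4 libraries. Its 5p product, at chr7:27169528-27169549 on the minus strand (RefSeq, GRCh38.p14), is shown because it represses HOX messages, with the seed (bases 2 to 8) in capitals.
hsa-miR-196b-5p: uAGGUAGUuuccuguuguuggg

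Toward the anterior end of the cluster, all 6 genes of HOXA2 to HOXA7 had H3K27me3 in all 4 libraries. Their median covered share was 100% in A673 and 81.9% in CHLA10, beside 100% in A673 and 0% in CHLA10 for the 5 members. HOXA5, a gene of lung and thoracic patterning, had its cover in CHLA10 from a single library, with 100% and 100% in A673 and 100% and 0% in CHLA10. SKAP2, the adaptor protein gene on the anterior side, had 52.6% and 55.1% in A673 and 19.4% and 32.4% in CHLA10.

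Posterior genes of the other HOX clusters mostly had no H3K27me3 peak in either line. Of 13 posterior paralogues, counting EVX2, 10 had no H3K27me3 peak within 1 kb in any library, beside 0 of the 5 members. That is near the share of 72.2% among all genes. HOXB9 had it in all 4 libraries. EVX2, the paralogue of EVX1 beside HOXD13, had 72.3% and 74.7% of its length covered in A673 and 0% and 0% in CHLA10, which is the pattern of HOXA10, HOXA11 and HOXA13 and not of EVX1. H3K4me3 was in all 4 libraries at 10 of the 13, not far from the share of 66.7% among all genes. H3K27ac was called in CHLA10 only at HOXB13, HOXD12 and EVX2, against 4.81% of all genes, and in all 4 libraries at HOXD13, against 22.6%. None of the 5 members had either call.

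**Figure D4:**
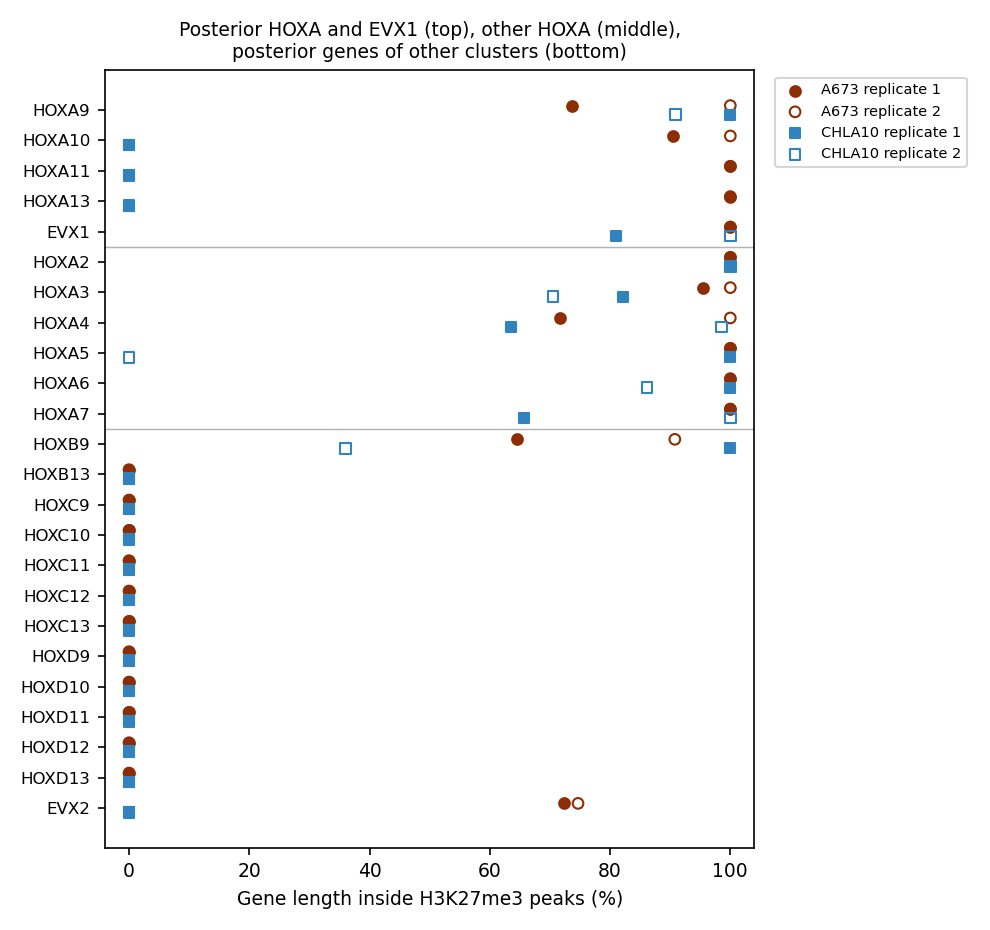
Share of gene length inside H3K27me3 peaks, in percent, for the 5 members (top), 6 other HOXA genes (middle) and 13 posterior genes of the other clusters (bottom), by library (A673 circles, CHLA10 squares). EVX2 stands at 72.3% and 74.7% in A673 and at 0% in CHLA10, and most other posterior paralogues stand at 0% throughout.

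Likeness to the members was measured as the sum, over the 16 histone libraries, of absolute differences in covered share (gene and 1 kb on each side) from the mean of the 5 members. Among the nearest outside the cluster were LOC124909494 (51.8 percentage points), the receptor gene GPR12 (63.2), PERP, a p53 target gene (67.0), and the eye gene PAX6 (69.9). The median over all genes was 315. The members themselves lay 94.4 (HOXA11) to 202 (HOXA13) from their own mean, since that mean averages genes with H3K27me3 in CHLA10 and genes without it. These 4 genes had H3K27me3 in all 4 libraries.

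The label of the cells was checked against markers. All 10 Ewing sarcoma genes, among them NKX2-2, NR0B1 and CAV1, had H3K4me3 in both libraries of A673 and of CHLA10, and 7 of 10 had H3K27ac in each line. Of markers of blood, epithelium, endothelium and muscle, H3K4me3 was in both libraries at 1 of 4, 0 of 3, 1 of 3 and 1 of 2 in A673, and at 1 of 4, 1 of 3, 0 of 3 and 0 of 2 in CHLA10. H3K27ac was in both libraries at 1 of 4, 0 of 3, 1 of 3 and 0 of 2 in A673. In CHLA10 it was at 1 of 4, 1 of 3, 2 of 3 (PECAM1 and TEK) and 0 of 2. Of all protein-coding genes, 66.7% had H3K4me3 and 22.6% had H3K27ac in all 4 libraries. That rule is stricter than both libraries of a single line, for which the share over all genes was not computed.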

How the data were processed

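Per the labels, CUT&RUN was run on an automated platform in A673 and CHLA10 cells, with 1 HOXD13 library and 2 libraries of each histone mark per line. The submitters' processing notes list MACS2 and SEACR 1.2, beside Bowtie2 and bedtools, and give hg38 as the build. Per the file contents, peak names show that narrow peaks were called against IgG per sample and H3K27me3 as broad peaks without a control. Each deposited list gives per peak a score, a fold enrichment (a ratio over the caller's background), and −log10 p and −log10 q values, all made by the authors. No deposited peak has a −log10 q under 2, and missing peak numbers show that each list is a subset, by a criterion not given in the sources used here.

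From these, peaks on chromosomes 1 to 22 and X were overlapped (at least 1 bp) with RefSeq genes of GRCh38 and 1 kb on each side, with Python 3.11.15 and pandas 2.3.3. Covered shares used merged peaks within gene boundaries. RefSeq start windows were matched by symbol for 5 of 5 members. The coverage function was tested on simulated peaks. A line-only call needs a peak in both libraries of one line and neither of the other. Members, gene lists and named genes were chosen with earlier results of these data known. Named were the members, genes from SKAP2 to HIBADH, fixed lists (other HOXA genes, posterior paralogues, cofactors, Polycomb and trithorax genes) and the genes of closest pattern. Some genes of these sets are not reported here. Read depth is unknown, so no interval was computed. Alternatives changed the window, overlap, peak strength, cover threshold and distance, or left out a library.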

Additional observations from a re-analysis of the deposited data

How the results depend on the processing

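The 3 members with H3K27me3 in A673 only, HOXA10, HOXA11 and HOXA13, stayed the same genes with 2.5 kb on each side. They also stayed the same when only the stronger 50% of peaks, ranked by q, were kept. The gene body alone, an overlap of at least 500 bp and leaving out any single library could not have changed this set. These 3 genes had 90.5% to 100% of their length covered in each A673 library and 0% in each CHLA10 library. HOXA9 and EVX1 had 73.6% to 100% covered in every library. HOXA10 became the 1 member with H3K4me3 in CHLA10 only with the gene body alone and also (1) with an overlap of at least 500 bp, and leaving out a library gave 0 to 1, the 1 without A673 replicate 1. Leaving out a library gave 0 to 1 members with H3K4me3 in A673 only (HOXA9 without A673 replicate 2) and 0 to 2 with H3K27ac in A673 only (HOXA11 and HOXA13 without A673 replicate 2). For H3K4me1 in A673 only the range was 0 to 3 (3 without A673 replicate 2, and EVX1 without CHLA10 replicate 2). With a cover threshold of 90%, the borders numbered 3 in A673 in place of 1 and 4 in CHLA10 in place of 3, since mean cover was under it at HOXA9 in A673 (86.8%) and at HOXA7 in CHLA10 (82.8%). With the upper 50% of each list, CHLA10 had 3 borders, the first between HOXA7 and HOXA9 in place of between HOXA9 and HOXA10. Mean HOXA9 cover in CHLA10 was 95.5%, 73.8% with 1 kb on each side and 45.5% with the upper 50% of each list. HOXD13 peaks stayed at 0 within 500 kb in each line. Within 10 kb, with the upper 50% of the list or with equal peak numbers, the count could only stay at 0. No paired analysis was possible because nothing in the labels links an A673 library to a CHLA10 library. The comparisons are descriptions of called peaks without a test. Without read counts, a peak that is missing from a list cannot be told apart from one of low depth.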

Other observations

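The HOX cofactor genes, whose proteins bind DNA with HOX proteins, are given here beside all protein-coding genes. All 8 MEIS, PBX and PKNOX genes of the list had H3K4me3 in all 4 libraries, against 66.7% of all genes, and 6 of 8 had H3K27ac in all 4, against 22.6%. PBX3 differed in H3K27me3, with 44.2% and 52.6% of its length covered in A673 and 0% and 0% in CHLA10. MEIS3 went the other way, with 0% and 0% in A673 and 20.7% and 10.6% in CHLA10, and had H3K27ac in A673 only. PBX2, PBX4, PKNOX1 and MEIS1 had no H3K27me3 peak within 1 kb in any library.

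All 17 Polycomb and trithorax genes of the list, among them EZH2, EED, SUZ12 and KMT2A, had H3K4me3 in all 4 libraries, against 66.7% of all genes. None of the 17 had an H3K27me3 peak within 1 kb in any library, and 72.2% of all genes had none either. H3K27ac was in all 4 libraries at 7 of the 17, against 22.6%.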
